A study of Mus musculus with 45 samples.

Results

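The left ventricles of mice that kept an aortic constriction were compared between 6 and 8 weeks of age, across all genes. The 10 libraries were those titled nAAC at 6 weeks (5 libraries) and nAAC at 8 weeks (5 libraries), out of 45 in the series. Wild-type (WT) mice had the aorta narrowed within a day of birth in the nAAC groups, and control WT mice had a sham operation. The sham groups at 6 and 8 weeks (5 libraries each) were used to ask whether a change over the same ages differed without constriction. A reversible constriction (Rev-nAAC) and the age of 4 weeks made up the rest of the series. Each library was total RNA of left ventricular tissue, and since separate animals are not stated for the replicates, p-values measure the spread between libraries, which may be technical.

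A narrowed aorta forces the ventricle to pump against a higher pressure. Heart muscle cells answer by growing, by secreting the natriuretic peptides ANP and BNP (genes Nppa and Nppb), by returning to fetal forms of the contractile proteins such as beta myosin heavy chain (Myh7) and skeletal actin (Acta1), and by lowering genes of fatty acid oxidation and calcium uptake. Fibroblasts lay down collagen and matricellular proteins such as periostin (Postn), and immune cells enter the tissue. In mice, 6 to 8 weeks is the passage from late juvenile to young adult life.

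The files held 27007 genes, of which 15444 had enough counts to be tested. Totals of the 10 nAAC libraries lay between 31.6 and 36.0 M counts (M, mega), and the median tested gene had 474 counts in a library. Heart muscle markers were abundant in every library, summing to 48500 to 58000 CPM (counts scaled to a common library size) over 12 genes at 6 weeks and to 47000 to 57800 CPM at 8 weeks. The sums of 12 cell type marker lists gave no difference between the ages past the threshold in two-sided exact permutation tests, the smallest p being 0.0556 for 13 lymphocyte genes (adjusted p = 0.666 over the 12 lists). The share of counts from the mitochondrial genome was 23 ± 3.27% at 6 weeks and 21.5 ± 1.45% at 8 weeks (SD, n = 5), a difference of -1.56 percentage points (two-sided exact permutation p = 0.389, smallest possible 0.00794). Sex read from Xist and 4 Y-linked genes was female in 4 of 5 libraries at 6 weeks and in 2 of 5 at 8 weeks, while all 10 sham libraries were male.

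Replicates 3 and 4 at 6 weeks stood apart from the other 8 nAAC libraries. They lay at -31.6 and -31.2 on the leading principal component, which held 22.4% of the variance, while the other 8 lay between -6.8 and 21.8. Their correlation with each other was 0.986 and that with the other 8 was 0.977 to 0.983. Both were the highest of the 10 libraries for 7.59% of all tested genes and the lowest for 9.47%. Atrial genes such as Myl4, an atrial myosin light chain, were high in replicate 1 at 6 weeks (169.6 CPM against 2.41 to 9.51 in the other 4) and in replicate 5 at 8 weeks (34 CPM against 2.82 to 5.15). In bulk tissue, fewer cells of a type and less RNA per cell cannot be told apart.

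From 6 to 8 weeks no gene passed the test in the constricted ventricles. With edgeR's quasi-likelihood test and Benjamini-Hochberg adjustment at 0.05, 0 of 15444 genes were called (0%), and the smallest adjusted p was 0.0701. At an unadjusted p under 0.05 there were 1224 genes (7.93%), of which 566 were higher (3.66%) and 658 lower (4.26%) at 8 weeks. DESeq2 called 11 genes and limma voom with quality weights called 27. The middle 90% of genes had log2 fold changes between -0.58 and 0.39. The 95% interval of the change lay within 2-fold in either direction for 12605 genes (81.6%) and within 1.5-fold for 9983 genes (64.6%). No gene was therefore named by size of change, and genes below are given from a panel of load genes, from gene lists, or as the 11 genes of smallest p, which were chosen after their values were seen.

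The hormones of stretched heart muscle stayed high at both ages. Nppa (chromosome 4, 148000722 to 148002074, build GRCm38) had 9601, 13848, 9199, 11786 and 14197 CPM in replicates 1 to 5 at 6 weeks and 13964, 12248, 11484, 11895 and 9412 CPM at 8 weeks. These ranges overlap almost wholly, and every nAAC library was above the highest sham library of these ages, 840.0 CPM. The log2 change of Nppa was 0.01 ± 0.43 (SE), with a 95% interval of -0.87 to 0.89. Nppb had 964, 1232, 721, 985 and 1361 CPM at 6 weeks and 1825, 1329, 1266, 1626 and 1124 CPM at 8 weeks. The higher values at 8 weeks overlapped those at 6 weeks, and the log2 change was 0.45 ± 0.37 (adjusted p = 0.812). Of the 7 tested genes of the natriuretic system, which also holds the receptors Npr1, Npr2 and Npr3 and the processing proteases Corin and Furin, all 7 were higher in value at 8 weeks but with a median log2 change of 0.10, and the smallest unadjusted p was that of Nppb and Npr2, 0.24.

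The fetal contractile genes did not differ past the test either, with a wide spread between libraries. Myh7 had 5916, 7039.6, 2125, 1423 and 5828 CPM at 6 weeks, the low values being replicates 3 and 4, and 6149, 2624, 2829, 5068 and 5309.7 CPM at 8 weeks. Its log2 change was -0.02 with a 95% interval of -1 to 0.95, so a change of 2-fold lay at the edge of what this spread could show. Acta1 differed by -0.15 (interval -1.07 to 0.77). Ankrd1, a stretch-responsive titin-binding protein, differed by 0.10 (-0.55 to 0.76). Myh6, the adult alpha myosin heavy chain, had 9057 ± 1868 CPM at 6 weeks and 8699 ± 1704 CPM at 8 weeks (SD, n = 5), and Atp2a2, the calcium pump of the sarcoplasmic reticulum, had 4876 ± 837 and 4957 ± 623 CPM. The intervals were narrower, -0.41 to 0.29 for Myh6 and -0.26 to 0.31 for Atp2a2.

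No gene of fibroblasts or growth factors in the panel passed the test. Postn had 745, 914, 1090.5, 825 and 1151 CPM at 6 weeks and 983, 1177, 957, 1196 and 860.4 CPM at 8 weeks, a log2 change of 0.13 ± 0.46. Tgfb2, a profibrotic ligand, had a log2 change of 0.33 ± 0.24, and Ccn2, its classic target, one of 0.58 ± 0.37 (adjusted p = 0.745). Gdf15, a stress hormone of the heart, had 22.4, 21.9, 12.4, 12.8 and 42.3 CPM at 6 weeks and 46.8, 40.1, 23, 64.9 and 24.6 CPM at 8 weeks. The ages overlap because replicate 5 at 6 weeks was high, and the log2 change of 0.83 ± 0.46 had an adjusted p of 0.685. Col1a1 and Fn1, chief proteins of scar and provisional matrix, differed by -0.30 ± 0.27 and -0.24 ± 0.23, and Col3a1, a fibrillar collagen, by -0.62 ± 0.29 (adjusted p = 0.625). Timp1, a protease inhibitor, differed by 0.25 ± 0.42, and Ppargc1a, a regulator of mitochondrial gene expression, by 0.17 ± 0.33. Cpt1b, which brings fatty acids into mitochondria, was counted at only 0.822 and 1.01 CPM, so its log2 change of 0.29 ± 0.34 rests on few reads. RefSeq places a read-through transcript, Gm44502, over the whole of Cpt1b, and how reads shared by both were counted is not stated, so this value may not give the level of the gene.

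**Figure D1:**
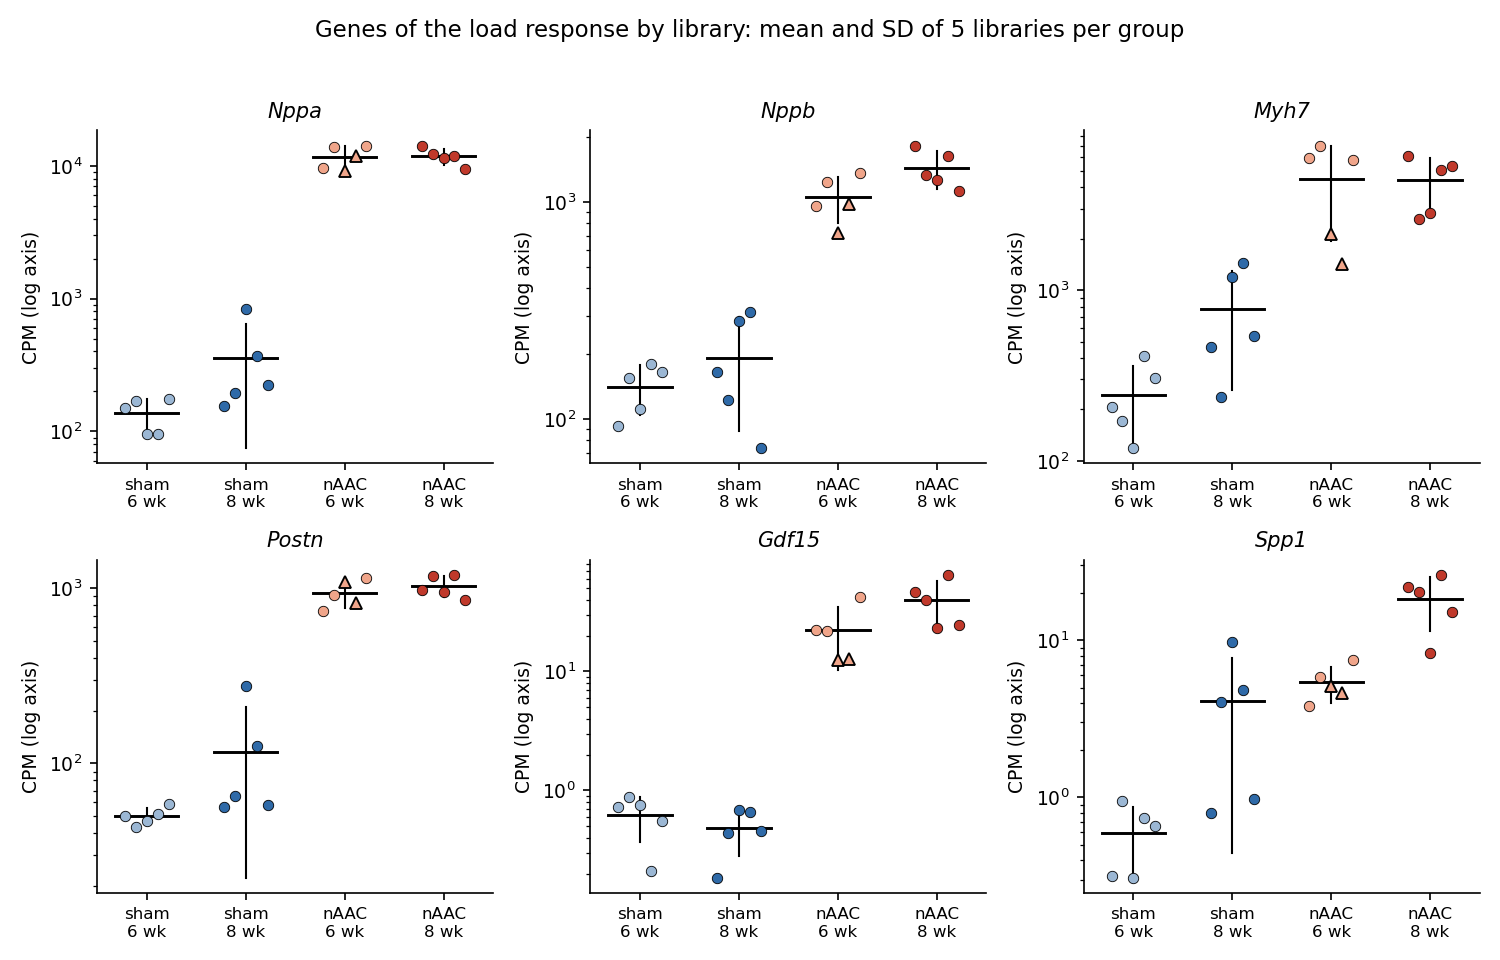
CPM of 6 genes on a log axis in every library of the sham and nAAC groups at 6 and 8 weeks, with the mean (line) and SD (bar) of 5 libraries. Triangles mark nAAC 6-week replicates 3 and 4. For Nppa, Nppb, Postn and Gdf15 the nAAC libraries of both ages overlap and lie above all sham libraries, while the 5 nAAC libraries at 8 weeks lie above the 5 at 6 weeks for Spp1.

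In the matricellular group the ages separated fully for 2 of 29 genes, both higher at 8 weeks. Among them was Spp1, osteopontin, a protein of activated macrophages and fibroblasts. It had 3.84, 5.87, 5.13, 4.62 and 7.50 CPM at 6 weeks and 21.9, 20.3, 8.29, 26.1 and 15.1 CPM at 8 weeks. The ages did not overlap, which held for 0.894% of all genes in this direction. Its log2 change was 1.77 ± 0.62 (adjusted p = 0.41), and in sham it rose by 2.78 on the log2 scale (adjusted p = 0.046). The difference between the changes was -1.02 ± 0.97 (adjusted p = 0.83). Of the 29 genes of this group, 16 were higher and 13 lower in value, with a median of 0.05 in nAAC against 0.68 in sham.

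The 11 genes of smallest p were 8 lower and 3 higher at 8 weeks in value. They are the same 11 genes that DESeq2 called, and voom called 8 of them. The tools read the same counts and the number 11 was set after the values were seen, so this match is not independent evidence. Nid2 (chromosome 14, 19751257 to 19811787), nidogen 2 of the basement membrane, had 37.2, 38.8, 47.7, 49.3 and 30.3 CPM at 6 weeks and 22.2, 27.1, 34.1, 26.1 and 26.4 CPM at 8 weeks. One library of each age overlapped. On the log2 scale the change was -0.58 ± 0.11 (adjusted p = 0.0701).

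Dhcr7, the enzyme of the last step of cholesterol synthesis, had 7.03, 6.21, 8.28, 8.33 and 6.77 CPM at 6 weeks and 4.41, 5.51, 5.50, 5.60 and 4.03 CPM at 8 weeks, with no overlap. Its log2 change was -0.55 ± 0.11 (adjusted p = 0.0701), against -0.05 in sham. Fmo2, a flavin-containing monooxygenase, had 93.7, 51.0, 19.1, 19.6 and 73.5 CPM at 6 weeks and 166, 277, 155, 126 and 136 CPM at 8 weeks. All 5 libraries at 8 weeks were above all 5 at 6 weeks, with a log2 change of 1.74 ± 0.36 (adjusted p = 0.0896). In sham it was 1.17 (adjusted p = 0.075), and the difference between both was not past the test (adjusted p = 0.8).

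Adm encodes adrenomedullin, a vasodilator peptide. It had 5.91, 3.94, 4.10, 5.42 and 6.77 CPM at 6 weeks and 7.39, 14.0, 7.15, 14.9 and 6.66 CPM at 8 weeks, high in replicates 2 and 4. The fitted log2 change was 0.94 ± 0.20 (adjusted p = 0.0896). Mal, a myelin and raft protein, was higher by 0.95 ± 0.20 with the same adjusted p. Lower values were seen for Bora, a mitotic activator of Aurora A (-1.10 ± 0.24), Adamts12, a matrix protease (-1.26 ± 0.28), and Tspan18, a tetraspanin (-0.80 ± 0.18), each at an adjusted p of 0.0896 to 0.0928. Kcne1, a subunit of the slow delayed rectifier potassium channel, had 8.14, 7.87, 24.6, 14.1 and 6.24 CPM at 6 weeks and 2.96, 2.59, 4.70, 3.37 and 8.19 CPM at 8 weeks. The log2 change of Kcne1 was -1.48 ± 0.33 (adjusted p = 0.123). Spon2, a secreted matrix protein, and Mtss1, a membrane-bending protein, followed with -3.17 ± 0.71 and -0.56 ± 0.13 at the same adjusted p.

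In 9 of these 11 genes, all but Adm and Bora, nAAC 6-week replicates 3 and 4 were both the highest or both the lowest of the 10 libraries. Spon2 had 2.1, 7.58, 22.5, 15.4 and 3.66 CPM at 6 weeks and 0.976, 0.11, 1.22, 0.778 and 2.58 CPM at 8 weeks. Only replicate 1 at 6 weeks fell inside the range of the 8-week libraries. Without replicates 3 and 4 edgeR again called 0 genes, and the number at an unadjusted p under 0.05 was 473 in place of 1224. Having fewer libraries at 6 weeks also lowers such a number. With both left out, the changes of all 11 genes were smaller, 4 of them by over 1.5 times. The log2 changes of these 4 were then -0.38 for Nid2, -0.68 for Adamts12, -0.76 for Kcne1 and -1.96 for Spon2. For the 9 genes in which both libraries were at the extreme, a smaller change had to follow, so it tests nothing there. Calls by edgeR appeared when replicate 1 (6 genes) or replicate 5 (8 genes) at 6 weeks, or replicate 3 (1 gene, Nid2) or replicate 5 (5 genes) at 8 weeks, was left out. Leaving out the 2 libraries with atrial RNA gave 7 genes. Nid2 and Mal were past the threshold with a replicate block (adjusted p = 0.0276 for each).

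The same 2 libraries lay at the top for collagens. Col4a1, the main chain of basement membrane collagen, had 821, 979.6, 1593, 1563 and 839 CPM at 6 weeks and 770.5, 829, 827, 841 and 738 CPM at 8 weeks. Apart from replicates 3 and 4, and 1 further library at 6 weeks, the values of both ages lay within 738 to 841 CPM. The fitted change was -0.53 ± 0.16 (adjusted p = 0.35). Col5a3, a minor fibrillar chain, had 61.4 and 58.3 CPM in those replicates and 16.5 to 22.7 CPM in the other 8. Of the 23 collagen chains tested, 19 were lower and 4 higher in value at 8 weeks, with a median log2 change of -0.37 in nAAC and -0.11 in sham. Both libraries were the highest of the 10 for 15 of the 23 chains. In the fit without them the collagen median was -0.08, the log2 change of Col4a1 was -0.13 ± 0.16 and that of Col5a3 -0.07 ± 0.27. Elastin (Eln), at 133, 139, 335, 255 and 130.4 CPM at 6 weeks and 85.4, 76.8, 95.2, 89.2 and 162 CPM at 8 weeks, had a log2 change of -0.97 ± 0.32 (adjusted p = 0.381), and -0.40 ± 0.34 without both libraries.

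The opposite side held the immediate early genes, glucose uptake and part of the contractile genes. Replicates 3 and 4 at 6 weeks were both the lowest of the 10 libraries for 17 of 24 immediate early genes, for 14 of 24 genes of glucose uptake and glycolysis and for 7 of 16 thick filament genes. Ier3, an immediate early survival gene, had 46.6, 44.9, 30.8, 21.7 and 48.3 CPM at 6 weeks and 62.5, 70.1, 77.1, 103 and 52.9 CPM at 8 weeks. The ages did not overlap, and the log2 change was 0.93 ± 0.28 (adjusted p = 0.35), against -0.37 in sham. Slc2a1, the basal glucose transporter, and Pfkfb3, which speeds glycolysis, were higher by 0.56 ± 0.21 and 0.58 ± 0.24. Neither passed the test (adjusted p = 0.462 and 0.551). Without both libraries the medians were -0.19 for immediate early genes and -0.01 for glucose uptake and glycolysis, in place of 0.13 and 0.08.

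**Figure D2:**
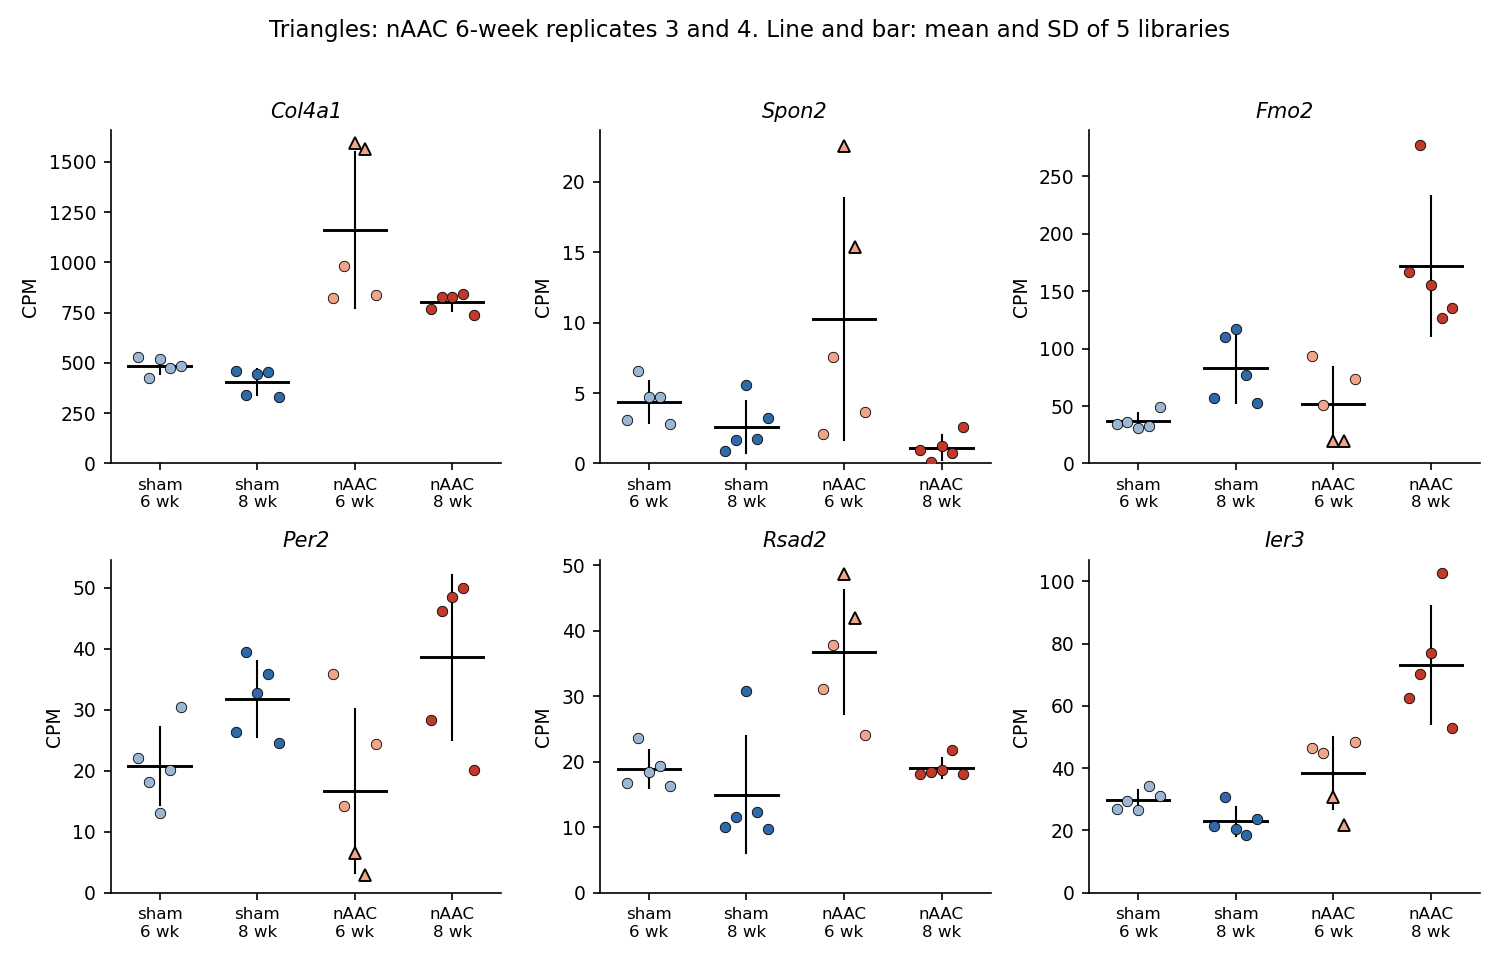
CPM of 6 genes in every library of the sham and nAAC groups, with the mean (line) and SD (bar) of 5 libraries. Triangles mark nAAC 6-week replicates 3 and 4, which are highest for Col4a1, Spon2 and Rsad2 and lowest for Fmo2, Per2 and Ier3.

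To learn whether the ventricle changed differently over these ages under constriction, the nAAC change was set against the sham change in the same fit. By sex read from the counts, 1 of 5 nAAC libraries at 6 weeks and 3 of 5 at 8 weeks were male, while all 10 sham libraries were. The difference may therefore also carry a shift in sex, which the sham change lacks. In sham, 282 genes changed from 6 to 8 weeks (1.83% of genes tested), 163 up (1.06%) and 119 down (0.771%). The difference between the 2 changes was called for 25 genes (0.162%), 9 with a higher and 16 with a lower change in nAAC. At an unadjusted p under 0.05 there were 1463 genes (9.47%), and DESeq2 and voom called 72 and 297. A fit with a sex term called 23. Of the 25 genes, 20 had changed in sham. The 16 lower differences were all genes with higher sham values at 8 weeks, and the 9 higher ones genes with lower sham values. Since the sham change enters the difference and no gene was called in nAAC, such a split is largely built in. The 163 genes that rose in sham, by a median of 0.65, had a median of 0.06 in nAAC, and 108 of them were higher in value there. The 119 that fell in sham, by a median of -0.56, had a median of -0.07 in nAAC, and 81 were lower in value. Both sets were picked by their sham change, so medians nearer 0 in nAAC follow in part from the picking.

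**Figure D3:**
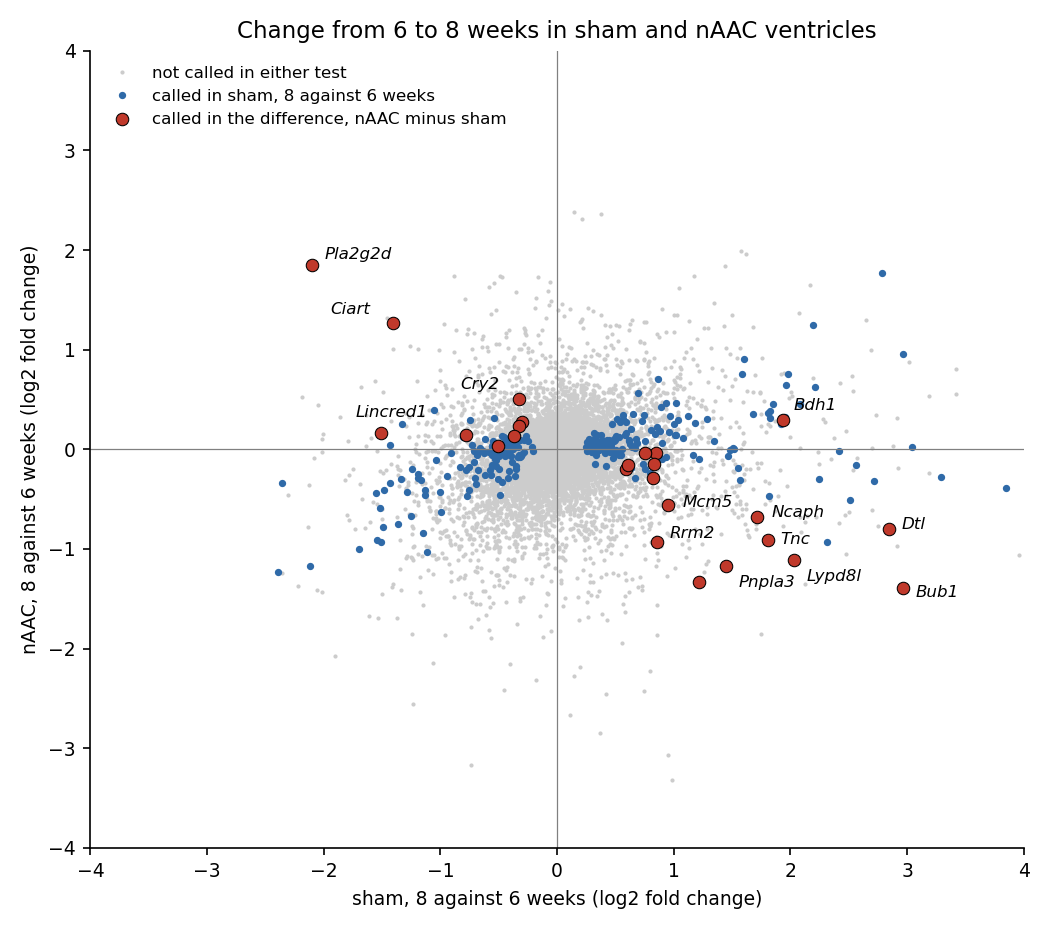
Log2 fold change from 6 to 8 weeks in nAAC against that in sham for each tested gene, with 4 genes beyond the axes. Blue points passed the test in sham and red points in the difference, where 16 red points lie to the right of 0 on the sham axis and 9 to the left.

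Bdh1 had the smallest p of the difference. It encodes the mitochondrial enzyme that turns the ketone body beta-hydroxybutyrate into acetoacetate (chromosome 16, 31422297 to 31458901). In sham it had 32.9, 33.7, 23.9, 24.1 and 35.6 CPM at 6 weeks and 94.1, 132, 152, 114 and 83.4 CPM at 8 weeks. In nAAC it had 138, 156, 108, 103 and 168 CPM at 6 weeks and 150.1, 184, 159, 117 and 214 CPM at 8 weeks. The sham ages did not overlap, and sham at 8 weeks reached into the nAAC range. It rose in sham by 1.94 ± 0.19 on the log2 scale (adjusted p = 8.87e-09), whereas nAAC differed by 0.29 ± 0.18 (adjusted p = 0.734). The difference was -1.65 ± 0.26 (interval -2.16 to -1.13, adjusted p = 0.00178), and it was past the threshold under all 29 alternatives, with adjusted p from 2.69e-06 to 0.00776.

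Among the other genes of this difference, Tnc (tenascin C, a matricellular protein of injured tissue; chromosome 4, 63959785 to 64047015) rose in sham and was lower in value in nAAC. It had 1.42, 1.82, 1.54, 2.25 and 1.31 CPM in sham at 6 weeks and 3.05, 3.90, 8.24, 11.4 and 2.67 CPM at 8 weeks, high in replicates 3 and 4. In nAAC it had 2.53, 3.37, 10.2, 6.56 and 2.18 CPM and then 1.90, 2.59, 1.83, 3.89 and 2.98 CPM. The difference was -2.72 ± 0.54 (adjusted p = 0.018). Without nAAC 6-week replicates 3 and 4 it was -1.84 (adjusted p = 0.255). Those 2 sham libraries at 8 weeks were also high in Nppa (840.0 and 372 CPM against 155 to 223), and what part this has in the sham change was not tested.

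The remaining genes named in the difference were small in number and varied in role. Pnpla3, a lipid droplet hydrolase, differed by -2.62 ± 0.55 (adjusted p = 0.028) and Lypd8l, a gene of the Ly6 domain family, by -3.15 ± 0.65 (adjusted p = 0.028). Dhdh, a dihydrodiol dehydrogenase, differed by 0.92 ± 0.17 (adjusted p = 0.0081), with 13.9 ± 1.83 and 15.3 ± 1.46 CPM in nAAC and 23.9 ± 1.34 and 13.9 ± 1.13 CPM in sham (SD, n = 5). Nol3, an inhibitor of muscle cell death, differed by 0.58 ± 0.13 (adjusted p = 0.038), higher in nAAC at 72.5 ± 2.87 against 59.9 ± 7.24 CPM and lower in sham. Kiz, a centrosome protein, and the long non-coding RNA Lincred1 differed by 0.56 ± 0.12 and 1.67 ± 0.38 (adjusted p = 0.04 and 0.047). Over the 29 alternatives Dhdh was called in 28, while the other calls were lost in many. Pnpla3 was called in 17 (adjusted p up to 0.319), Lypd8l in 14 (up to 0.293), Kiz in 10 (up to 0.255), Nol3 in 9 (up to 0.255) and Lincred1 in 8 (up to 0.259).

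Genes of DNA replication and mitosis had medians of opposite sign in the operations. Of 43 listed genes, 40 were lower and 3 higher in value at 8 weeks in nAAC, with a median of -0.48, while the sham median was 0.79. None of the 43 was called in nAAC, and 9 were lower at an unadjusted p under 0.05, against 4.26% of all genes. In sham 4 of the 43 rose, against 1.06% of all genes, and 4 had a lower change in nAAC than in sham, namely Mcm5, Mcm6, Rrm2 and Bub1 (4 of 43 against 0.104% of all genes called lower). The Mcm genes encode the helicase that opens replication origins, Rrm2 the subunit of ribonucleotide reductase that limits the making of DNA building blocks, and Bub1 a kinase of the mitotic checkpoint.

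Mcm5 had 3.63, 2.96, 4.29, 4.37 and 2.80 CPM in sham at 6 weeks and 7.14, 7.09, 5.35, 6.96 and 8.37 CPM at 8 weeks, with no overlap. In nAAC it had 6.24, 8.94, 6.06, 5.56 and 6.74 CPM and then 2.85, 3, 7.20, 4.25 and 5.42 CPM, where only replicate 3 at 8 weeks lay within the 6-week range. The difference was -1.51 ± 0.33 (adjusted p = 0.033). Mcm6 had 17.3 ± 1.72 and 15.1 ± 1.94 CPM in nAAC and 9.21 ± 0.489 and 13.9 ± 1.36 CPM in sham (SD, n = 5), a difference of -0.79 ± 0.16 (adjusted p = 0.025). Rrm2 differed by -1.78 ± 0.40 and Bub1 by -4.36 ± 0.98, both at an adjusted p of 0.047. Bub1 was scarce, at 0 to 0.0946 CPM in sham at 6 weeks, 0.326 to 0.459 at 8 weeks, and 0.404 to 1.68 and then 0.184 to 0.649 CPM in nAAC.

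The promoters of Mcm5 and Mcm6 are shown because both genes are known targets of E2F factors, which switch on replication genes. The sequences are windows of 300 bases from RefSeq in build GRCm38.p6, 5′ to 3′ on the strand of the gene. That of Mcm6 runs from 250 bases before to 50 after the gene start. For Mcm5 the window is set about another start, since RefSeq begins the gene at 75109468. Mcm5 lies at chr8:75109259-75109558 on the plus strand and Mcm6 at chr1:128359656-128359955 on the minus strand. Capitals mark matches on either strand to the letters TTTGGCGC, TTTCCCGC, TTTCGCGC or TTTGCCGC.
Mcm5 promoter: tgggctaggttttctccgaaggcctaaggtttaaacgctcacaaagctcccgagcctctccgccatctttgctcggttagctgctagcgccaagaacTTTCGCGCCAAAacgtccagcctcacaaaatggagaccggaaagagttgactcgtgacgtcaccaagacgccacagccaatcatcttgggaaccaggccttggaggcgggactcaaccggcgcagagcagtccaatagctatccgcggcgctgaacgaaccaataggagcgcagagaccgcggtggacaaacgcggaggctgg
Mcm6 promoter: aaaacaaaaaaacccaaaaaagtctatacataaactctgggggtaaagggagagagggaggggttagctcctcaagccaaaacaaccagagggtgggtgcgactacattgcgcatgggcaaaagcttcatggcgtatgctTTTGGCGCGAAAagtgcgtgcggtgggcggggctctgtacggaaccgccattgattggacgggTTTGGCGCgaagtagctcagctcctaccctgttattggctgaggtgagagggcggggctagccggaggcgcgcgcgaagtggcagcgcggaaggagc
Mcm5 held 2 matches, which overlap, and Mcm6 held 3, of which 2 overlap. Such letters were found in 2.26% of 32817 promoters of this length. No match was found in the same window of Rrm2 and Bub1, which says only that these letters are not in it.

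Without nAAC 6-week replicates 3 and 4 the nAAC median of the list was -0.44. The 4 calls depended on single libraries. Leaving out 1 of the 20 libraries left between 0 and 4 of them past the threshold, and without nAAC 6-week replicates 3 and 4 none was (adjusted p = 0.0633 for Mcm5, 0.0771 for Mcm6 and Rrm2, and 0.138 for Bub1), at differences of -1.64, -0.79, -1.89 and -4.28. Lymphocyte marker genes summed to 5.70 to 18.4 CPM at 6 weeks and 4.54 to 9.91 CPM at 8 weeks in nAAC, with 0 of the 13 genes undetected throughout, and macrophage markers to 453 to 516 and 445 to 651 CPM. Their part in the cell cycle values was not tested.

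Clock genes had medians of opposite sign as well, as did several other lists, such as the stress cytoskeleton (-0.09 in nAAC and 0.36 in sham). The circadian clock turns on BMAL1 with its partners CLOCK or NPAS2, which switch on the Per, Cry, Nr1d and Ciart genes and the output factors Dbp, Tef and Hlf through E-boxes. PER, CRY and CIART proteins hold back CLOCK and BMAL1, and NR1D proteins repress the Bmal1 gene. In nAAC, 17 of 21 clock genes were higher and 4 lower in value at 8 weeks, with a median of 0.43 against -0.20 in sham. None of the 21 was called, and at an unadjusted p under 0.05 there were 9 higher (against 3.66% of all genes) and 2 lower (against 4.26%), the lower ones being Npas2 (-1.54 ± 0.43) and Bmal1. The difference was called for Cry2 and Ciart (2 of 21 against 0.0583% of all genes called higher).

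Cry2, a repressor of the clock, had 22.8, 21.2, 19.9, 12.3 and 20.6 CPM in nAAC at 6 weeks and 24.7, 27.5, 29.2, 25.9 and 29.9 CPM at 8 weeks. The 5 libraries at 8 weeks lay above the 5 at 6 weeks. In sham it had 45.5, 37.8, 34.2, 37.0 and 45 CPM and then 32.2, 35.7, 32.8, 28.2 and 30.1 CPM. The nAAC change was 0.50 ± 0.12 (adjusted p = 0.233), the sham change -0.33 ± 0.12 (adjusted p = 0.15), and the difference 0.83 ± 0.17 (adjusted p = 0.028). Ciart, a repressor of CLOCK and BMAL1, had 1.49, 1.34, 0.673, 0.883 and 1.45 CPM and then 1.2, 2.81, 3.64, 4.96 and 1.55 CPM in nAAC, where the ages overlapped. In sham it had 13.6, 10.6, 6.72, 11.6 and 18.3 CPM at 6 weeks and 4.99, 4.78, 4.81, 5.69 and 2.61 CPM at 8 weeks, with no overlap. The difference was 2.68 ± 0.60 (adjusted p = 0.047).

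The promoters of Ciart and Cry2 are given to show how differently the E-box CACGTG, which reads the same on both strands and is bound by CLOCK and BMAL1, is placed in genes whose differences had the same sign. Ciart lies at chr3:95882179-95882478 and Cry2 at chr2:92434020-92434319, both on the minus strand, taken from the same RefSeq table, with the E-box in capitals. RefSeq begins these genes at 95882257 and 92434085, so here too the windows are set about another start.
Ciart promoter: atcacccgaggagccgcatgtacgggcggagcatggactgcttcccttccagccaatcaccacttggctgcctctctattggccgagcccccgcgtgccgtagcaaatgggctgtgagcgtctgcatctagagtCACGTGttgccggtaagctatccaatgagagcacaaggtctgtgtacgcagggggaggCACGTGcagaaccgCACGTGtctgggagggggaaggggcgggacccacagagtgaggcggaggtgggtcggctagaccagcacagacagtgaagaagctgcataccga
Cry2 promoter: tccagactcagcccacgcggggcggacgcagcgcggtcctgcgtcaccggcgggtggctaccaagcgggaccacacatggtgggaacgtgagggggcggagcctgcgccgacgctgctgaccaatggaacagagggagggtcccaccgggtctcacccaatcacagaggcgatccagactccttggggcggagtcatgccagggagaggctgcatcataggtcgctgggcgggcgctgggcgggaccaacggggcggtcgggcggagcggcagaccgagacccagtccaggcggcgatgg
Ciart held 3 E-boxes and Cry2 none in this window. Only the exact letters CACGTG were searched for, so other forms of the element were not counted. Of the 32817 promoters, 7.15% held this E-box.

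In the clock list, nAAC 6-week replicates 3 and 4 again stood at the ends. Both were the lowest of the 10 libraries for 13 of the 21 genes and both the highest for 2 of them. Per2, a repressor, had 35.8, 14.1, 6.51, 2.97 and 24.3 CPM at 6 weeks and 28.4, 46.1, 48.5, 49.99 and 20.1 CPM at 8 weeks. Bmal1 had 11.7, 22.4, 30.1, 33.3 and 17.4 CPM at 6 weeks and 13.9, 10.7, 6.30, 7.52 and 20.4 CPM at 8 weeks. Per2 and Bmal1 were chosen here after their values were seen, and the 2 libraries lowest in Per2 were the highest in Bmal1. Mice were kept in a light and dark cycle per the labels, but the hour at which hearts were taken is not given in the sources used here, and its part in these values was not tested. Without both libraries the nAAC median of the list was 0.22, with 2 higher and 0 lower at an unadjusted p under 0.05, and no clock gene was called in the difference (adjusted p = 0.144 for Cry2 and 0.259 for Ciart), and leaving out 1 library left 0 to 2.

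**Figure D4:**
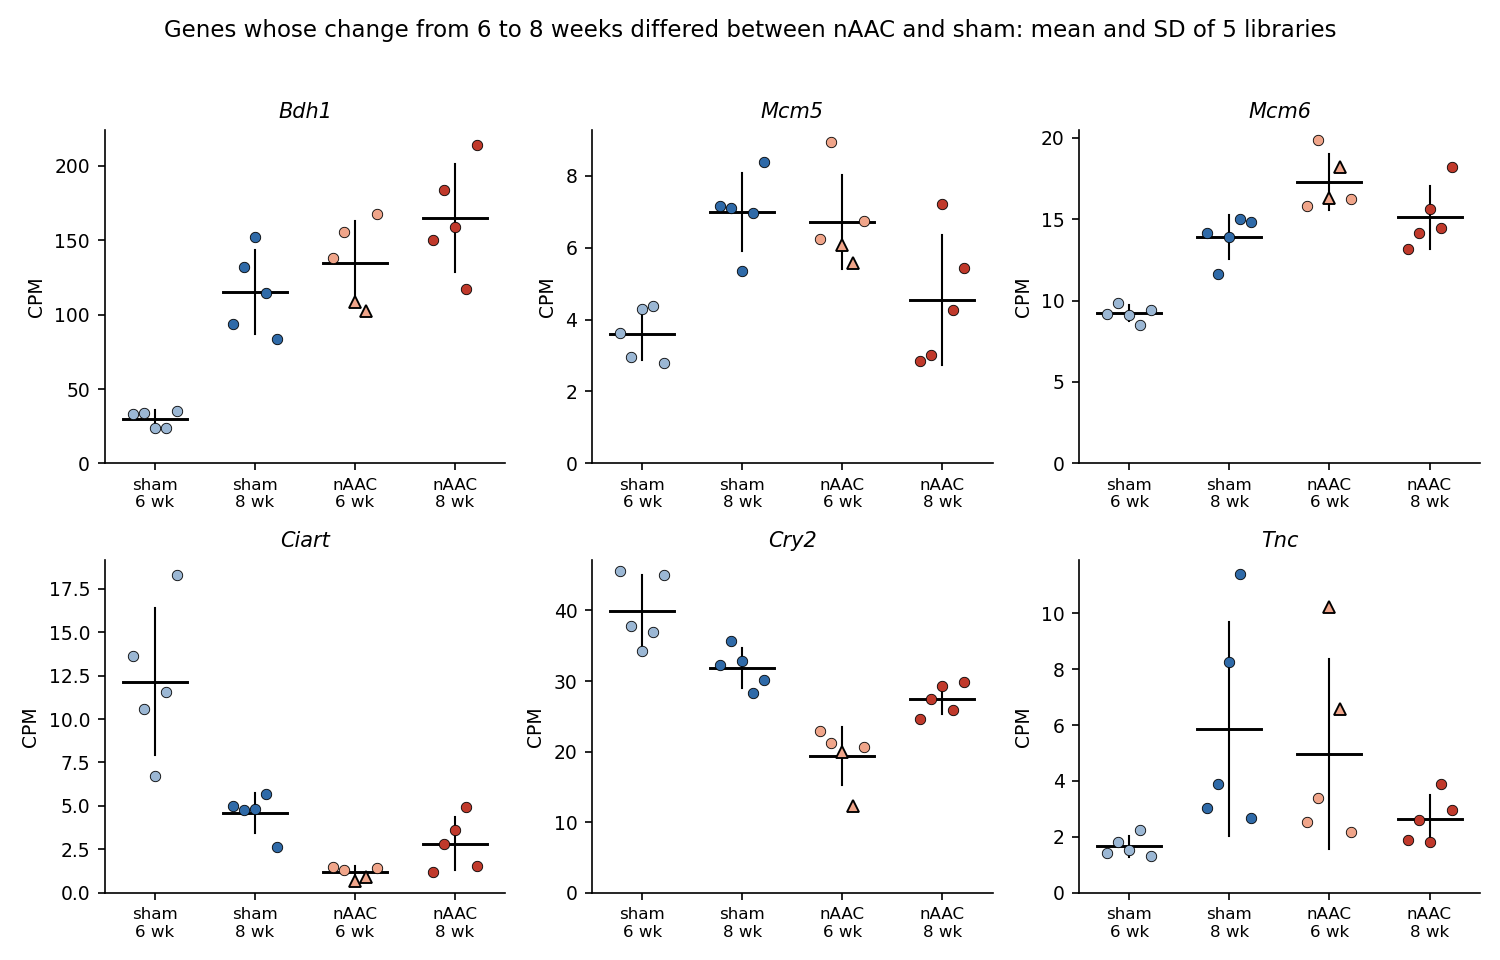
CPM of 6 genes called in the difference between the nAAC and sham changes, in every library, with the mean (line) and SD (bar) of 5 libraries. Triangles mark nAAC 6-week replicates 3 and 4. Bdh1, Mcm5 and Mcm6 are higher at 8 weeks in sham with no overlap, while their nAAC ages overlap. Cry2 is lower at 8 weeks in sham and higher in nAAC.

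Interferon-stimulated and antigen presentation genes were lower in value at 8 weeks. Of 35 tested interferon response genes, 34 were lower and 1 was higher in value, with a median of -0.38 in nAAC and -0.19 in sham, and 9 were lower at an unadjusted p under 0.05, against 4.26% of all genes. Without nAAC 6-week replicates 3 and 4 the nAAC median was -0.40. Rsad2, an antiviral enzyme (viperin), had 31.1, 37.9, 48.7, 42.0 and 24.1 CPM at 6 weeks and 18.2, 18.5, 18.7, 21.7 and 18.2 CPM at 8 weeks. The ages did not overlap, which held for 0.835% of all genes in this direction. Its log2 change was -0.95 ± 0.24 (adjusted p = 0.259). Usp18, which removes the ubiquitin-like protein ISG15, had 10.8, 10.3, 17.8, 14.7 and 7.16 CPM and then 5.33, 5.48, 6.24, 10.04 and 4.24 CPM, a log2 change of -0.95 ± 0.24 (adjusted p = 0.233).

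All 21 antigen presentation genes were lower in value, with a median of -0.41 in nAAC and -0.43 in sham. H2-K1, a class I heavy chain, had 350.0, 404, 462, 299.9 and 310.3 CPM at 6 weeks and 231, 231, 259, 298 and 199 CPM at 8 weeks, with no overlap and a log2 change of -0.58 ± 0.20 (adjusted p = 0.404). B2m, the light chain of class I, differed by -0.55 ± 0.20 (adjusted p = 0.425). The 4 genes of this list that fell in sham (against 0.771% of all genes) were all of the class II pathway or its chaperone, and none of the 21 was called in the difference. Copies of the H2 genes share sequence, and how shared reads were counted is not stated. Of 12 tested lymphocyte genes, 11 were lower in value with a median of -1.05, at low levels. Ms4a1 (CD20) had 0.379, 0.562, 0.645, 3.33 and 2.29 CPM at 6 weeks and 0.290 to 0.804 CPM at 8 weeks, so 2 libraries at 6 weeks were high, and Jchain, of plasma cells, differed by -1.86 ± 0.58 (adjusted p = 0.353).

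Genes of energy metabolism lay close to 0 as groups. The 46 nuclear-encoded subunits of the respiratory chain had log2 changes between -0.06 and 0.11, with a median of -0.01 in nAAC against -0.19 in sham, and the 95% interval of all 46 lay within 2-fold. Ndufs1, of complex I, had 414 ± 24.0 and 434.9 ± 31.2 CPM (SD, n = 5). The 33 genes of fatty acid oxidation had a median of 0.00 against -0.17 in sham, with Acadm, the medium-chain dehydrogenase, at 0.19 ± 0.12. The 22 citric acid cycle enzymes had a median of 0.00 against -0.18. Of these only Mpc1, a carrier that brings pyruvate into mitochondria, had an unadjusted p under 0.05, at 0.20 ± 0.09 (adjusted p = 0.626), with 166, 159.6, 144, 171 and 175 CPM at 6 weeks and 199, 183, 180.3, 178 and 194 CPM at 8 weeks. Cytosolic ribosomal proteins had a median of 0.03 over 35 genes.

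The contractile and channel genes were close to 0 as groups, with a few large values. Medians were -0.06 for 16 thick filament genes, -0.07 for 15 thin filament genes, 0.08 for 18 Z-disc genes and -0.01 for 20 calcium handling genes. Mybpc2, the fast skeletal myosin-binding protein C, had 85.6, 79.2, 94.6, 74.2 and 50.03 CPM at 6 weeks and 34.5, 29.5, 44.1, 54.6 and 45.6 CPM at 8 weeks. Only replicate 5 at 6 weeks lay within the 8-week range, and the log2 change was -0.88 ± 0.28 (adjusted p = 0.353). Cacna1g, a T-type calcium channel, differed by -0.83 ± 0.23 (adjusted p = 0.259), and Casq1, the skeletal calsequestrin, by -1.44 ± 0.49 (adjusted p = 0.404). Tcap, a titin cap of the Z-disc, differed by 0.46 ± 0.20 and Gja5, connexin 40 of the conduction system, by 0.53 ± 0.21 (adjusted p = 0.551 and 0.498).

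**Figure D5:**
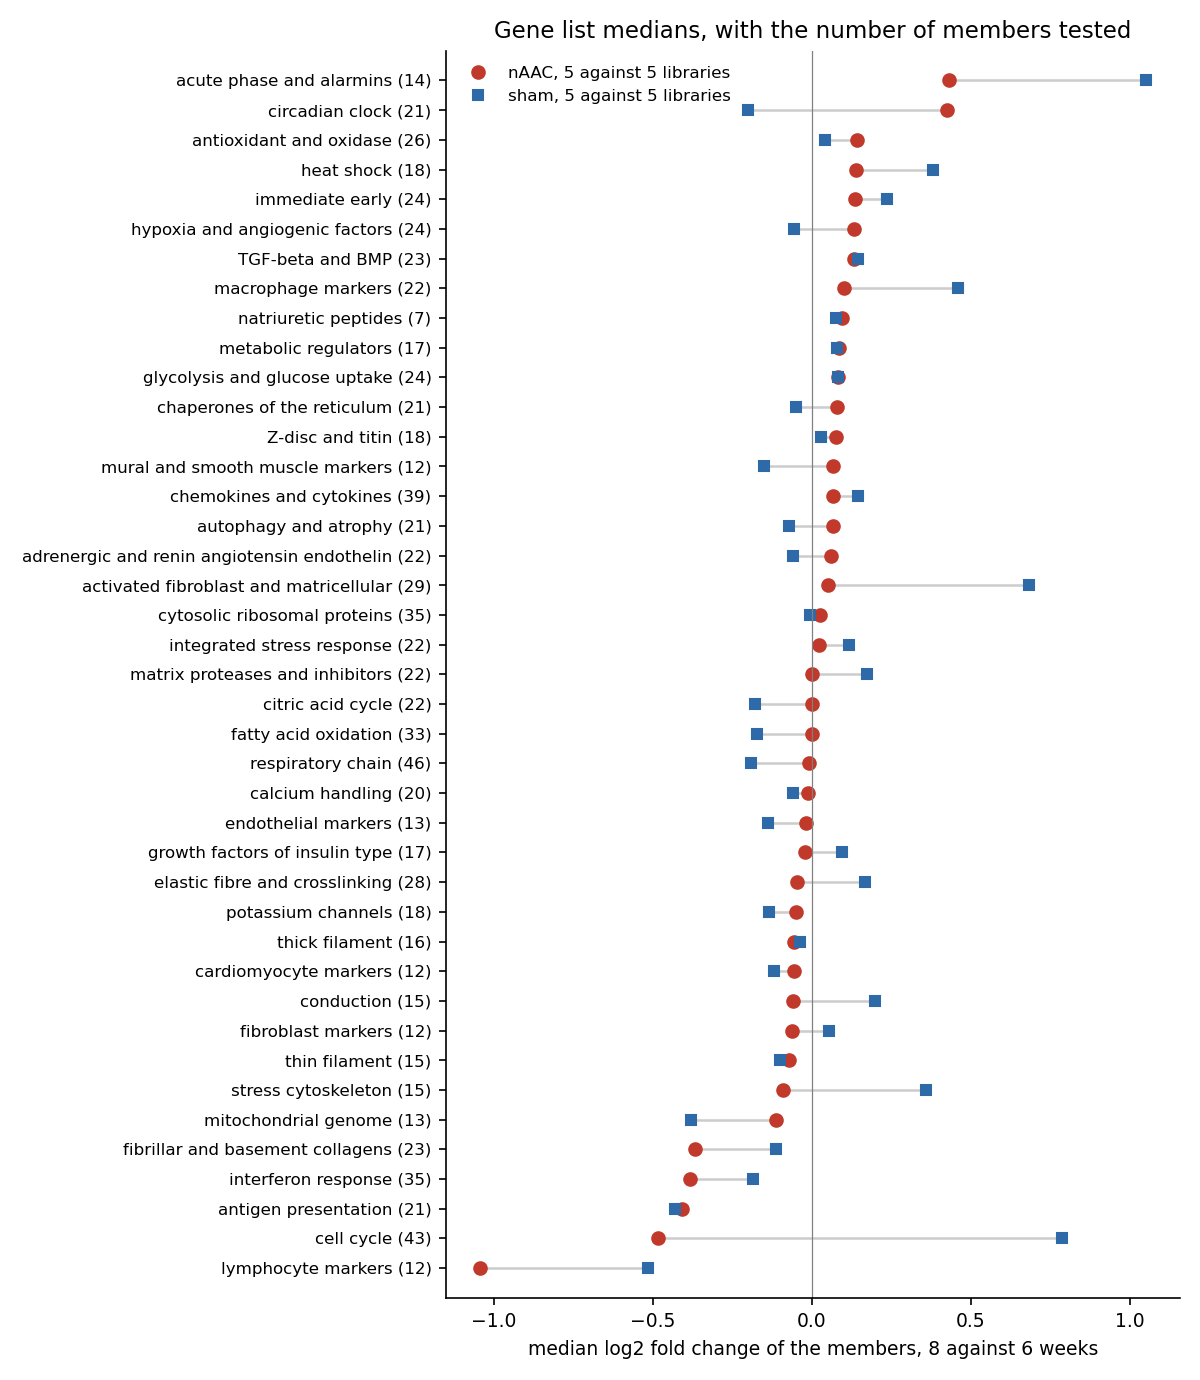
Median log2 fold change from 6 to 8 weeks of 41 of the 48 gene lists in nAAC (circles) and sham (squares), each from 5 against 5 libraries, with the number of members tested. Circle and square lie on opposite sides of 0 for the cell cycle (-0.48 and 0.79) and the clock (0.43 and -0.20), and both are near 0 for ribosomal proteins. Several other lists also have opposite signs, such as the stress cytoskeleton (-0.09 and 0.36) and conduction (-0.06 and 0.20). Not drawn are the sex-linked list and the red cell, adipocyte, atrial and valve, Schwann and neuron, skeletal muscle, and neutrophil and mast cell markers. Some of these have opposite signs too, such as atrial and valve markers (-0.37 and 0.32).

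Several secreted and stress genes were higher in value at 8 weeks without passing the test. Serpina3n, an acute phase serpin, differed by 1.34 ± 0.54 and the 14 acute phase genes by a median of 0.43 (1.05 in sham). Bmp6, an iron-regulating ligand, had 31.8 to 35.5 CPM at 6 weeks and 37.6 to 60.4 CPM at 8 weeks, with no overlap and a log2 change of 0.50 ± 0.14 (adjusted p = 0.259). Flt1, a receptor of vascular growth factor, had 199, 174, 169, 154 and 159 CPM and then 207, 248, 205, 215 and 247 CPM, again with no overlap (0.39 ± 0.10, adjusted p = 0.259; 0.21 in sham). Sqstm1, an autophagy receptor, and Ctsd, a lysosomal protease, were higher by 0.31 ± 0.11 and 0.26 ± 0.09, also without overlap of the ages. Gstm1 and Dnajb4, a glutathione transferase and a heat shock co-chaperone, were higher by 0.28 ± 0.10 and 0.37 ± 0.12. In the heat shock list the nAAC median was 0.14 with 0 of 18 called, and 5 of 18 rose in sham (median 0.38), against 1.06% of all genes.

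Last, the genes that set nAAC apart from sham at 4 weeks were followed, since those libraries are on neither side of the 8 against 6 week comparison. The 3016 genes higher in nAAC at 4 weeks had a median log2 change of 0.073 from 6 to 8 weeks, and 70.7% of them were higher in value. The 3267 genes lower in nAAC at 4 weeks had a median of -0.064, and 33.9% of them were higher in value. For the 9161 genes not called at 4 weeks these were -0.003 and 49.2%. In sham the medians of the same sets were 0.046, -0.029 and -0.003.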

How the data were processed

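RNA of left ventricular tissue was sequenced in 45 libraries, of which 10 nAAC and 10 sham libraries at 6 and 8 weeks are compared here. The authors deposited whole-number counts, unnormalized, for each gene and library. Per the submitters' processing notes, fastp 0.20.1, HISAT2 2.1.0 and HTSeq 0.11.2 were used with the mouse build GRCm38 (mm10). Which annotation was used, whether strand was used and how shared reads were counted are not given in the sources used here, so close copies and overlapping genes are uncertain. Gene symbols were matched to RefSeq GRCm38.p6 for 25521 of 27007 genes.

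Counts were fitted in R 4.3.3 by edgeR 4.0.16 after TMM scaling, with filterByExpr (minimum count 10, minimum total 15) and robust quasi-likelihood tests over all 9 groups, which share one estimate of the spread. Contrasts were nAAC 8 against 6 weeks, sham 8 against 6 weeks and their difference. Benjamini-Hochberg adjustment was made over all genes of a contrast, and 0.05 was the threshold. CPM use TMM library sizes, errors beside log2 changes are SE, and library totals of 31.6 to 36.0 M limit low counts. Same-numbered replicates passed a correlation of 0.1 in 0 of 5 nAAC and 1 of 5 sham pairs, so no block was used. The code was tested on simulated data.

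Members, gene lists and tests were chosen with earlier results of these data known. Genes were named from those past the threshold, with at least 2 CPM in the higher group (up to 12 each way for nAAC, where the ages also had not to overlap, and 6 each way for the difference), from a load panel, and as up to 4 members of each of 48 lists past the threshold or up to 2 of smallest p where none passed. A gene that the rule named is not reported here. Alternatives were DESeq2 1.42.0, limma 3.58.1 voom with quality weights, scaling by RLE, all genes unfiltered, fits of the compared groups alone, a block for replicate number, a sex term, each sex alone, a threshold of 0.01 and each library left out. Fits without nAAC 6-week replicates 3 and 4, and without the 2 libraries with atrial RNA, were added after seeing the data.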

Additional observations from a re-analysis of the deposited data

Results flagged for a closer look

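Of the 25 genes whose change from 6 to 8 weeks differed between nAAC and sham by edgeR's test of the difference itself (Benjamini-Hochberg), 14 are given by name. On the log2 scale the nAAC change was higher than the sham change by 2.68 for Ciart, 1.67 for Lincred1, 0.92 for Dhdh, 0.83 for Cry2, 0.58 for Nol3 and 0.56 for Kiz. It was below the sham change for the other genes, with differences of -4.36 for Bub1, -3.15 for Lypd8l, -2.72 for Tnc, -2.62 for Pnpla3, -1.78 for Rrm2, -1.65 for Bdh1, -1.51 for Mcm5 and -0.79 for Mcm6.

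In 11 of 148 groups of 5 nAAC libraries, over 74 genes, 1 library lay far from the other 4, and chance gives about 1 in 20. Myl4 had 169.6 CPM in replicate 1 at 6 weeks against at most 9.51, and 34 CPM in replicate 5 at 8 weeks against at most 5.15. At 6 weeks, replicate 3 was high for Cacna1g (35.1 CPM against at most 20.2) and Fn1 (289.8 against at most 208), while replicate 4 was high for Timp1 (23.7 against at most 11.2) and low for Cry2 (12.3 against at least 19.9). At 8 weeks, replicate 4 was high for Pfkfb3 (30.2 CPM against at most 15.3) and Rsad2 (21.7 against at most 18.7). Fmo2 was high in replicate 2 (276.9 CPM against at most 166), Lypd8l in replicate 3 (2.28 against at most 0.882) and Eln in replicate 5 (162 against at most 95.2) at 8 weeks.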

How the results depend on the processing

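The count of 0 genes called in nAAC held with scaling by RLE, without the filter and with a sex term. It also held in a fit of the compared groups alone. It was 0 without nAAC 6-week replicates 3 and 4, and in female libraries alone (4 at 6 weeks, 2 at 8 weeks). Having fewer libraries also lowers such a count, so these fits add little. A threshold of 0.01 is stricter on the same fit and could not raise a count of 0, so it tests nothing. Male libraries alone were 1 at 6 weeks and 3 at 8 weeks, too few to decide. DESeq2 called 11 genes in nAAC, 571 in sham and 72 in the difference, and limma voom 27, 1950 and 297. With only the compared groups in the fit there were 1434 genes in sham and 204 in the difference, and with no filter 154 and 14. A sex term gave 292 genes in sham and 23 in the difference. A replicate block gave 2 genes in nAAC, 241 in sham and 19 in the difference, although the numbers do not pair the libraries. Same-numbered pairs passed a correlation of 0.1 in 0 of 5 cases in nAAC and 1 of 5 in sham. Leaving out 1 library gave 0 to 8 genes in nAAC, 86 to 212 in sham and 7 to 30 in the difference. The sham count was lowest without sham 8-week replicate 4. Without nAAC 6-week replicates 3 and 4 the difference held 4 genes, Bdh1 among them. Without the 2 libraries with atrial RNA nAAC had 7 genes and the difference 26. The mitochondrial share differed by -2.64 to -0.34 percentage points when 1 library was left out. Medians of the 4-week gene sets were 0.073 and -0.083 with no filter, and 0.069 and -0.059 without the 4-week library whose treatment tag differs from its title. The causes of these shifts were not tested. Sexes were unequal between the ages, and 5 libraries a group left changes under 2-fold unresolved for genes whose interval is wider.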
